A study of Mus with 18 samples.

Results

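The leukocyte markers followed here are 10 genes of the 55416 gene IDs counted in mouse lens capsules. They were chosen by name, as genes that mark white blood cells in general, macrophages and monocytes, or neutrophils. The choice was made with earlier results of these data known. The question they address is whether RNA of immune cells was present in the capsules when the lens fiber cells were removed (0 h) and 6 h post cataract surgery (PCS), library by library. The 2 general markers are Ptprc (ENSMUSG00000026395) and Itgam (ENSMUSG00000030786). The 4 macrophage and monocyte markers are Csf1r (ENSMUSG00000024621), Adgre1 (ENSMUSG00000004730), Cd68 (ENSMUSG00000018774) and Lyz2 (ENSMUSG00000069516). The 4 neutrophil markers are Csf3r (ENSMUSG00000028859), Cxcr2 (ENSMUSG00000026180), S100a8 (ENSMUSG00000056054) and S100a9 (ENSMUSG00000056071).

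The lens has no blood vessels of its own, and lens epithelial cells (LECs) make up the cell layer on the inside of its anterior capsule. Neutrophils are short-lived cells that leave the blood within hours of an injury, monocytes follow them, and macrophages reside in most tissues, including the iris and ciliary body next to the lens. In a bulk sample, their RNA is read as part of the whole, so fewer cells of a type and less RNA per cell cannot be told apart.

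The 18 libraries fall into 6 groups of 3: wild type (WT), Egr1KO and FosBcKO capsules, each at 0 h and at 6 h PCS. All mice carried the strain label C57BL/6 and were 3 to 5 months old, and each library pooled 5 capsules. The study's methods name an Egr1KO stock whose strain name is not C57BL/6 alone. They also name a cre line that came from FVB/N and was backcrossed to C57BL/6. The shared label therefore does not show that the genotypes had the same background. The fiber cells of the second eye were removed 6 h after those of the first and both capsules were then collected, so each 0 h capsule came from an animal whose other eye had been operated 6 h before. Egr1KO mice lacked functional Egr1 in the whole body, leukocytes included, through a neo cassette in exon 2. FosBcKO mice carried a floxed Fosb allele deleted in the lens by MLR10-cre, which a lens promoter drives, so their leukocytes were not the target of the deletion. Counts over a whole gene include the parts that a deletion leaves in place, so they do not check these labels. Egr1 had 28890 to 45091 counts in the Egr1KO libraries at 6 h against 15087 to 21706 in WT, and Fosb had 16544 to 20682 counts in the FosBcKO libraries at 6 h against 8045 to 16326 in WT. Groups are therefore called by their labels.

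Each library held 9609295 to 13871592 read pairs counted in genes, so that 3 counts, the limit taken for a count of 0, correspond to 0.216 to 0.312 CPM (counts scaled to a library total of 1000000). A change is called where it exceeds 2-fold and its Benjamini-Hochberg false discovery rate (FDR) does not exceed 0.05. Levels are compared only within a gene, since gene lengths were not at hand. Where the libraries of 2 groups are said not to overlap, the share of all genes for which this holds was not computed. A lack of overlap is therefore a description only. The lens genes Pax6, Foxe3 and Prox1, which encode transcription factors of LECs, summed to 1621 to 1898 CPM at 0 h and 511 to 1480 CPM at 6 h, so the labelled cell type was present in every library. WT 0 h replicate 2 stood apart for leukocyte marker RNA: it held 16 counts over all 10 markers, where the other 0 h libraries held 166 to 300, and 8 of the 10 markers had no count in it. FosBcKO 0 h replicate 2 had the highest sum of 8 red cell and platelet genes at 0 h, 77.9 CPM against 2.69 to 11.0 CPM in the other 0 h libraries.

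RNA of the leukocyte markers was present at both times. The macrophage and monocyte markers were already found at 0 h, with 10 or more counts of Csf1r in 8 of the 9 libraries, and their sum had a median of 21.2 CPM at 0 h and 21.8 CPM at 6 h over the 4 genes. The neutrophil markers were near the limit of detection at 0 h, with a median of 1 count for the 4 genes together, and had a median of 31 counts at 6 h. Of their 274 counts at 6 h, 103 were of S100a9, which stressed epithelia can make as well as neutrophils, and the other 3 markers had 24 counts in all at 0 h and 171 at 6 h. Which cells made the RNA of any marker was not tested. Over all genotypes, 4 of the 8 markers that could be tested rose by 6 h: Ptprc, Cd68, Csf3r and S100a9. Of all 17469 genes tested in that comparison, 18.9% were called higher and 3.14% lower, none of the latter a marker. S100a9 and Csf3r entered the test through the 6 h libraries, S100a9 with 10 or more counts in 5 libraries at 6 h and 0 at 0 h, and Csf3r in 6 and 1, so their count among the tested genes is not support by itself.

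**Figure D1:**
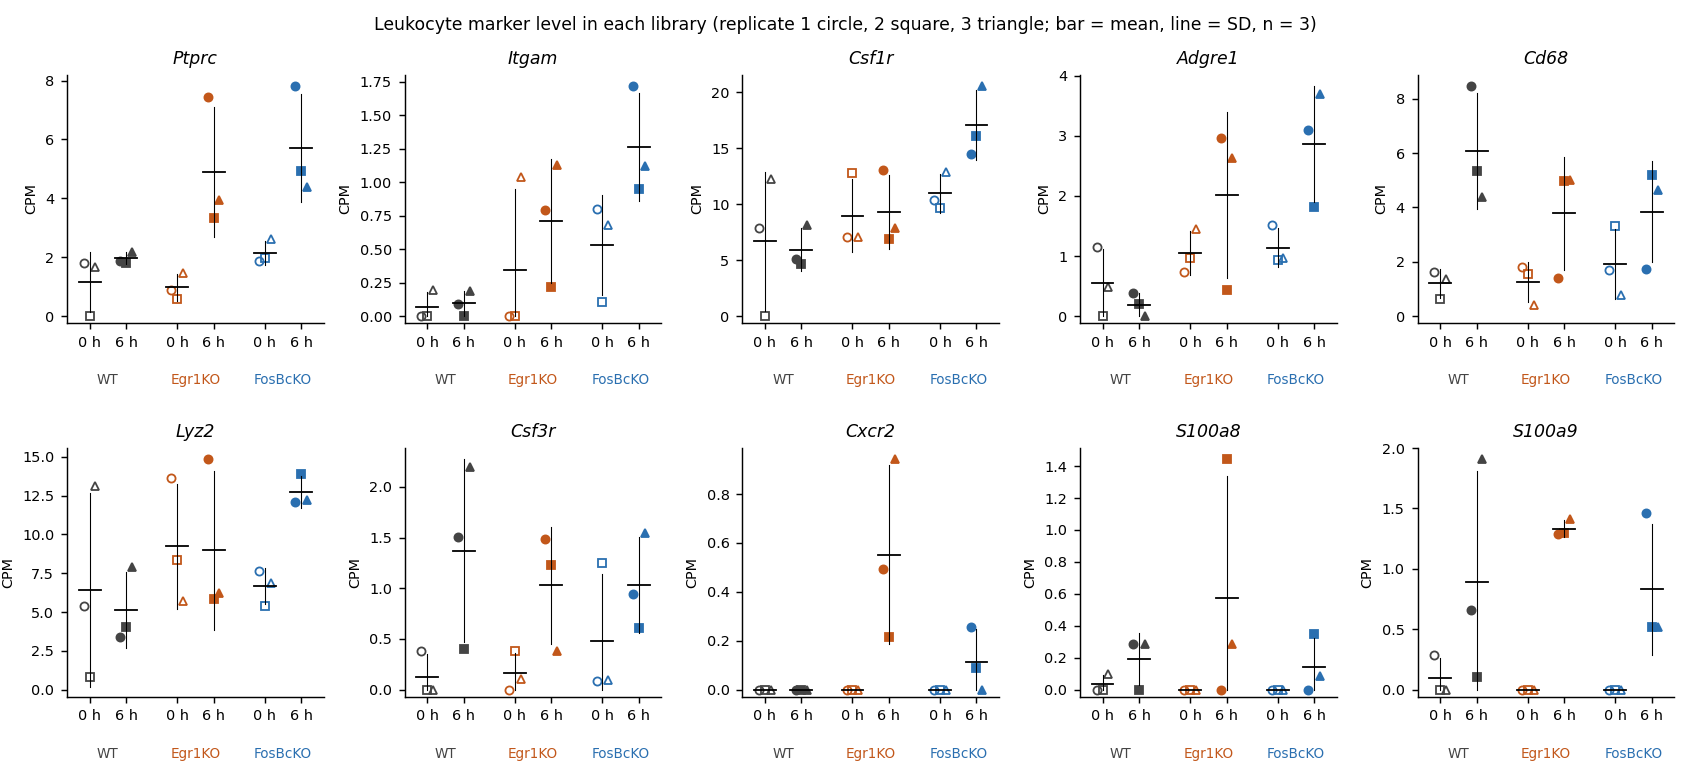
Level of each of the 10 leukocyte markers in CPM (vertical axis, linear, own scale per gene) in the 18 libraries, by genotype and time on the horizontal axis. Open symbols are 0 h and filled symbols 6 h, the shape gives the replicate, and the bar and line give the mean and SD of 3 libraries. Csf1r and Lyz2 have counts in the 0 h libraries apart from WT replicate 2, where Csf1r has none and Lyz2 is at its lowest, 0.80 CPM, whereas Cxcr2 has no count in any 0 h library.

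Ptprc encodes CD45, a phosphatase on the surface of all nucleated blood cells. In WT capsules Ptprc had 19, 0 and 17 counts at 0 h and 20, 18 and 23 counts at 6 h. Apart from the empty 0 h library, the WT libraries of both times had like counts. In Egr1KO capsules Ptprc had 11, 6 and 14 counts at 0 h and 75, 46 and 42 counts at 6 h. In FosBcKO capsules it had 21, 19 and 27 counts at 0 h and 91, 57 and 51 counts at 6 h. The times did not overlap in either knockout. Ptprc rose from 0.977 ± 0.446 CPM to 4.90 ± 2.21 CPM (SD, n = 3) in Egr1KO capsules, a log2 fold change of 2.38 ± 0.59 (SE, FDR = 0.0264), where 9.28% of all tested genes were called higher and 2.69% lower. In FosBcKO capsules it rose from 2.15 ± 0.405 to 5.71 ± 1.84 CPM, a log2 fold change of 1.39 ± 0.44 (FDR = 0.0440), where 11.2% were called higher and 1.9% lower. In WT capsules the log2 fold change was 0.67 ± 0.95 (FDR = 0.634), and 0.07 ± 0.55 (FDR = 0.943) without WT 0 h replicate 2. Over all genotypes Ptprc rose by 1.49 ± 0.43 on the log2 scale (FDR = 0.00655). The Egr1KO call was lost without any one of the 0 h libraries or without 6 h replicate 3 (FDR = 0.0671 to 0.0924), and the FosBcKO call was kept only without 6 h replicate 3, with an FDR of 0.0810 to 0.183 in the other fits that left out a library.

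Itgam encodes CD11b, the integrin alpha chain of neutrophils, monocytes and macrophages. It had 0, 0 and 2 counts at 0 h and 1, 0 and 2 counts at 6 h in WT capsules, so it was not detectable above 3 counts in any WT library. In Egr1KO capsules it had 0, 0 and 10 counts at 0 h and 8, 3 and 12 counts at 6 h. FosBcKO capsules had 9, 1 and 7 counts at 0 h and 20, 11 and 13 counts at 6 h, which did not overlap. The log2 fold change over all genotypes was 1.01 ± 0.76 (FDR = 0.275).

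Of the macrophage and monocyte markers, Cd68 alone passed the test over all genotypes, and Csf1r, Adgre1 and Lyz2 did not. Cd68 encodes a lysosomal glycoprotein that is abundant in macrophages. Its counts in WT capsules were 17, 7 and 14 at 0 h and 90, 53 and 46 at 6 h. In Egr1KO capsules they were 22, 16 and 4 at 0 h and 14, 69 and 53 at 6 h. In FosBcKO capsules they were 19, 32 and 8 at 0 h and 20, 60 and 54 at 6 h. The WT times did not overlap, and in each knockout replicate 1 at 6 h lay within the range of the 0 h libraries. Cd68 rose from 1.20 ± 0.521 to 6.07 ± 2.14 CPM (SD, n = 3) in WT capsules, a log2 fold change of 2.24 ± 0.50 (FDR = 0.0152), where 13.5% of all tested genes were called higher and 3.65% lower. The log2 fold change was 1.63 ± 0.70 (FDR = 0.125) in Egr1KO and 1.04 ± 0.64 (FDR = 0.265) in FosBcKO capsules. Over all genotypes Cd68 rose by 1.64 ± 0.38 on the log2 scale (FDR = 0.00137). The WT call was kept without WT 0 h replicate 2 (log2 fold change 1.92, FDR = 0.0419) and lost without WT 6 h replicate 1 (FDR = 0.0665).

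Csf1r encodes the receptor for the macrophage growth factors CSF1 and IL-34. In WT capsules it had 82, 0 and 126 counts at 0 h and 54, 46 and 85 counts at 6 h. In Egr1KO capsules it had 87, 133 and 68 counts at 0 h and 132, 96 and 84 counts at 6 h. FosBcKO capsules had 116, 93 and 133 counts at 0 h and 169, 186 and 239 counts at 6 h. The times overlapped in WT and Egr1KO capsules and did not overlap in FosBcKO capsules. The log2 fold change over all genotypes was 0.18 ± 0.42 (FDR = 0.740) and turned to -0.01 ± 0.22 without WT 0 h replicate 2. In FosBcKO capsules it was 0.63 ± 0.25 (FDR = 0.0928).

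Lyz2 encodes the lysozyme of macrophages and neutrophils, and its counts can share reads with its close copy Lyz1. In WT capsules it had 56, 9 and 135 counts at 0 h and 36, 40 and 83 counts at 6 h. In Egr1KO capsules it had 167, 87 and 55 counts at 0 h and 150, 81 and 66 counts at 6 h. FosBcKO capsules had 86, 52 and 71 counts at 0 h and 141, 161 and 142 counts at 6 h. The FosBcKO times did not overlap, and the log2 fold change there was 0.94 ± 0.28 (FDR = 0.0357), which was under 2-fold and so was not called. Over all genotypes the log2 fold change was 0.19 ± 0.37 (FDR = 0.680).

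Adgre1 encodes F4/80, the classical surface marker of mature mouse macrophages. WT capsules had 12, 0 and 5 counts at 0 h and 4, 2 and 0 counts at 6 h. Egr1KO capsules had 9, 10 and 14 counts at 0 h and 30, 6 and 28 counts at 6 h. FosBcKO capsules had 17, 9 and 10 counts at 0 h and 36, 21 and 43 counts at 6 h. WT at 6 h was the group with the fewest Adgre1 counts, 6 in all 3 libraries together. The log2 fold change over all genotypes was 0.50 ± 0.61 (FDR = 0.510), and in WT capsules Adgre1 was too low to be tested.

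The neutrophil markers had few counts throughout, and most of them lay in the 6 h libraries. S100a9 encodes a subunit of calprotectin, the calcium-binding protein that fills the neutrophil cytosol. It had 3, 0 and 0 counts at 0 h and 7, 1 and 20 counts at 6 h in WT capsules. In Egr1KO capsules it had 0, 0 and 0 counts at 0 h and 13, 18 and 15 counts at 6 h. In FosBcKO capsules it had 0, 0 and 0 counts at 0 h and 17, 6 and 6 counts at 6 h. Every 6 h library thus had at least 1 count and 8 of the 9 libraries at 0 h had none, and the times overlapped only through WT, where 0 h replicate 1 had more counts than 6 h replicate 2. Over all genotypes S100a9 rose by 4.62 ± 0.83 on the log2 scale (FDR = 0.000141), and the ratio of the summed counts, 103 at 6 h and 3 at 0 h, was 32.6 (exact 95% interval 10.9 to 161, counting error only). In Egr1KO capsules S100a9, which entered the test through the 6 h libraries, was called (FDR = 0.0148) and, with a floor of 3 counts over the 0 h group, was at least 14.3-fold higher at 6 h, and this call too was lost without any one of the 0 h libraries or without 6 h replicate 3 (FDR = 0.0514 to 0.0659). In FosBcKO capsules it was at least 8.64-fold higher against the same floor, and was too low to pass the filter for the test.

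S100a8 encodes the partner of S100a9 in calprotectin. It had 0, 0 and 1 counts at 0 h and 3, 0 and 3 counts at 6 h in WT capsules. In the knockouts no 0 h library had a count. At 6 h S100a8 had 0, 20 and 3 counts in Egr1KO and 0, 4 and 1 counts in FosBcKO capsules, so 20 of its 34 counts at 6 h came from Egr1KO replicate 2.

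Csf3r encodes the receptor for CSF3 (G-CSF), the growth factor of neutrophils. It had 4, 0 and 0 counts at 0 h and 16, 4 and 23 counts at 6 h in WT capsules. Egr1KO capsules had 0, 4 and 1 counts at 0 h and 15, 17 and 4 counts at 6 h. FosBcKO capsules had 1, 12 and 1 counts at 0 h and 11, 7 and 18 counts at 6 h. The 12 counts of FosBcKO 0 h replicate 2, the library with the most red cell RNA at 0 h, lay within the 6 h range. Over all genotypes Csf3r rose by 2.26 ± 0.73 on the log2 scale (FDR = 0.0141), and the change was 2.98 without FosBcKO 0 h replicate 2.

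Cxcr2 encodes the neutrophil receptor for the chemokines CXCL1 and CXCL2. It had no count in any of the 9 libraries at 0 h, which over those libraries allows a level of up to 0.0314 CPM. At 6 h it had no count in WT capsules, 5, 3 and 10 counts in Egr1KO and 3, 1 and 0 counts in FosBcKO capsules. Cxcr2 was therefore at least 5.60-fold higher at 6 h than at 0 h in Egr1KO capsules, and was not detectable at this depth in WT capsules. Cxcr2 and S100a8 were too low for the test, and both were called over all genotypes when no filter on low counts was used (FDR = 0.0279 and 0.0203).

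**Figure D2:**
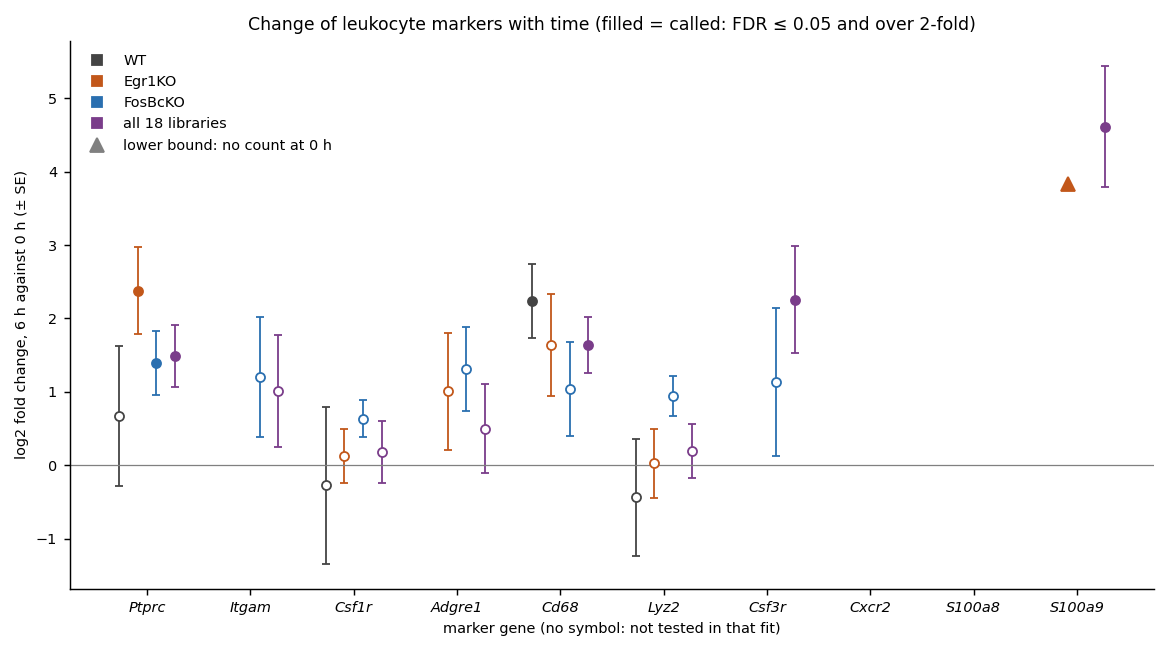
Log2 fold change from 0 h to 6 h with its SE (vertical axis) for each leukocyte marker (horizontal axis) in WT, Egr1KO and FosBcKO capsules and over all 18 libraries. Filled symbols passed an FDR of 0.05 with a change over 2-fold, and the triangle is the lower bound for S100a9 in Egr1KO capsules, which had no count at 0 h. Over all libraries Ptprc, Cd68, Csf3r and S100a9 are filled, and Csf1r and Lyz2 lie within 1 SE of 0.

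Read library by library, every 6 h library held at least 164 counts of the 10 markers and at least 5 counts of the neutrophil markers. At 0 h the 10 markers had 16 counts in WT replicate 2 and 166 to 300 in the other libraries, so their sums overlapped between the times. The neutrophil counts at 6 h were 26, 5 and 46 in WT, 33, 58 and 32 in Egr1KO, and 31, 18 and 25 in FosBcKO capsules. At 0 h they were 7, 0 and 1, then 0, 4 and 1, and then 1, 12 and 1 in the same order. The times did not overlap within any knockout, and in WT capsules 6 h replicate 2, with 5 counts, lay below 0 h replicate 1, with 7. The macrophage and monocyte counts at 6 h were 184, 141 and 214 in WT, 326, 252 and 231 in Egr1KO, and 366, 428 and 478 in FosBcKO capsules. At 0 h they were 167, 16 and 280 in WT, 285, 246 and 141 in Egr1KO, and 238, 186 and 222 in FosBcKO capsules. For this group the times overlapped in WT and Egr1KO capsules and were apart in FosBcKO capsules. The share of all genes whose times did not overlap was not computed, so these separations are a description only.

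RNA of genes that mark other blood cells and neighbouring tissue moved with time in the same libraries. Which cells made this RNA was not tested. All 8 red cell and platelet genes rose over all genotypes, where 18.9% of all tested genes did. Ppbp, Hba-a2 and Hbb-bt entered the test through the 6 h libraries, with 10 or more counts in 0, 1 and 1 libraries at 0 h, so the count of 8 is not support by itself. The genes that rose included Hbb-bs, a beta globin (log2 fold change 4.51, FDR = 0.000161), Hba-a2, an alpha globin (4.61, FDR = 8.98e-05), Alas2, the first enzyme of haem synthesis in red cells (4.47, FDR = 3.94e-05), and Ppbp, a platelet chemokine (1 count over the 9 libraries at 0 h and 84 at 6 h, FDR = 8.50e-05). The globin genes have near-identical copies, so the split between copies is uncertain. The sum of the 8 genes had a median of 5.96 CPM at 0 h (2.69 to 77.9) and 188.7 CPM at 6 h (83.3 to 339.8). All 4 endothelial genes rose too, Cdh5 with 10 or more counts in no library at 0 h, with log2 fold changes of 4.05 for Cdh5, 2.82 for Pecam1, 2.57 for Kdr and 1.72 for Tek, and their sum went from 3.11 to 15.4 CPM at 0 h to 10.8 to 120.6 CPM at 6 h. The 4 pigment cell genes Tyr, Pmel, Tyrp1 and Dct, which mark the iris and its pigmented epithelium, rose by 1.37 to 2.15 on the log2 scale over all genotypes, and their sum ranged over 14.0 to 94.4 CPM at 0 h and 35.5 to 354.5 CPM at 6 h. In WT capsules alone 0 of the 4 were called (median log2 fold change 0.52), and their sums overlapped, with 35.5 to 173.3 CPM at 6 h. In Egr1KO capsules 3 were called higher and in FosBcKO capsules 2. Of all tested genes 13.5% were called higher in WT, 9.28% in Egr1KO and 11.2% in FosBcKO capsules. The part of blood, vessel and iris RNA in the rise of the leukocyte markers was not tested.

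**Figure D3:**
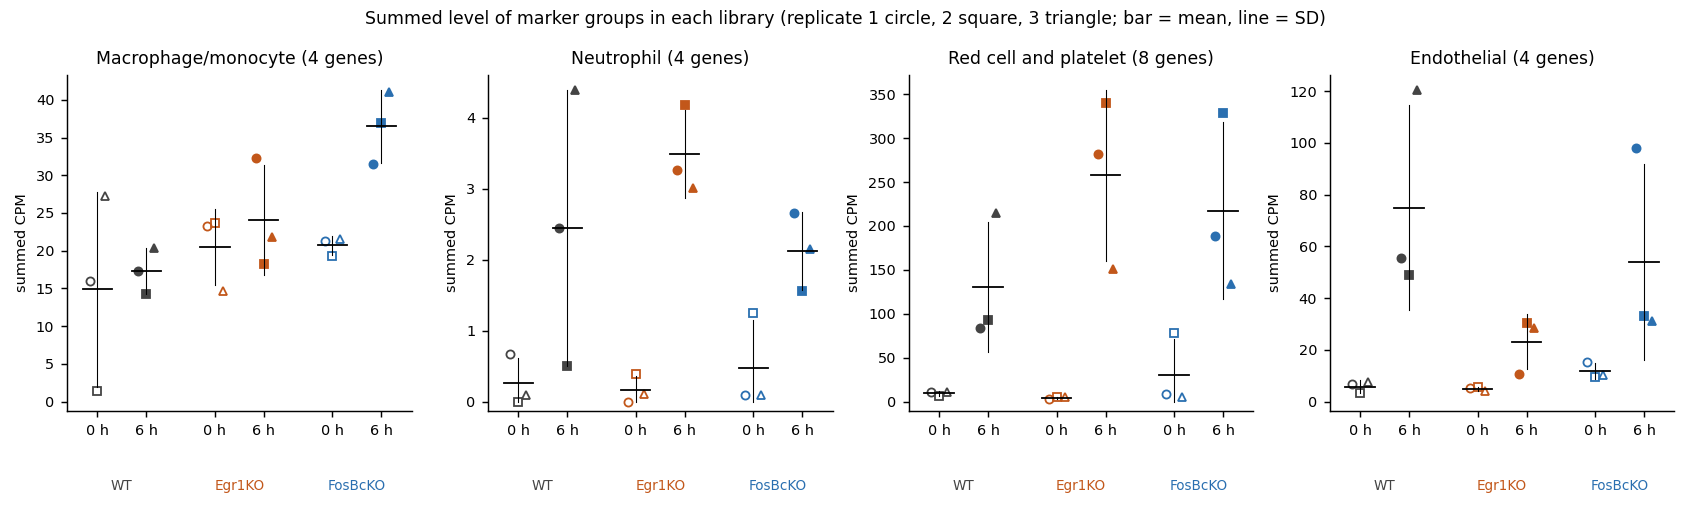
Summed level in CPM (vertical axis, linear, own scale per panel) of the 4 macrophage and monocyte markers, the 4 neutrophil markers, 8 red cell and platelet genes and 4 endothelial genes in each of the 18 libraries, by genotype and time. Open symbols are 0 h, filled symbols 6 h, shapes are replicates, and the bar and line are the mean and SD. The macrophage sums of the times overlap in WT and Egr1KO, while the red cell sums reach 83.3 CPM or more in every 6 h library and 77.9 CPM in FosBcKO 0 h replicate 2.

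Other leukocyte genes could be followed for part of the listed genes only, because the names of the IDs were known for a part that the study's own differential tables favour, so their counts are not those of a neutral list. Of 9 further pan-leukocyte genes tested over all genotypes, 6 rose and none fell, with a median log2 fold change of 1.35 against 0.08 for all tested genes, of which 18.9% rose. Vav1, Spi1 and Cd14 had 10 or more counts in 1 library each at 0 h and Il1r2 in none, so they entered the test through the 6 h libraries. Plek, a substrate of protein kinase C in platelets and leukocytes, rose by 1.65 ± 0.30 (FDR = 0.000160), Lcp1, an actin-bundling protein of leukocytes, by 1.35 ± 0.42 (FDR = 0.0114), Vav1, an exchange factor of blood cells, by 1.94 ± 0.64 (FDR = 0.0156), and Spi1, the transcription factor PU.1, by 1.85 ± 0.62 (FDR = 0.0168). Of 8 genes of resident macrophages and antigen presentation, 2 rose, with a median log2 fold change of 0.84. Cd14, the co-receptor for lipopolysaccharide, rose by 4.15 ± 0.40 (FDR = 3.06e-07), and H2-Aa, a chain of MHC class II, by 1.05 ± 0.41 (FDR = 0.0372). For Cd74, the invariant chain of MHC class II, the log2 fold change was 1.10 ± 0.45 (FDR = 0.0520), and for H2-Ab1 it was 1.01 ± 0.47 (FDR = 0.0829). Il1r2, the decoy receptor for IL-1 on neutrophils, was the only one of 19 further neutrophil and inflammatory monocyte genes with a known ID, and rose by 2.34 ± 0.86 (FDR = 0.0290) with 0 to 5 counts at 0 h and 1 to 21 at 6 h. None of 9 lymphocyte genes had a known ID, and lymphocytes were not analysed here.

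Genes of signals that draw leukocytes rose in the same capsules. Of 11 genes of attractants, growth factors and adhesion whose ID the study's own tables gave, 9 were tested and all 9 rose over all genotypes, where 18.9% of all tested genes did. Csf3 and Ccl3 had 10 or more counts in no library at 0 h and entered the test through the 6 h libraries, and the known IDs favour genes that changed, so this count is not support by itself. Csf3, the ligand of the Csf3r protein, had 1 count in all 9 libraries at 0 h and 78 to 1020 counts at 6 h. Csf1, the ligand of the Csf1r protein, rose by 2.61 ± 0.28 on the log2 scale (FDR = 2.57e-06), from 15.3 to 30.0 CPM at 0 h to 45.3 to 222.8 CPM at 6 h. Icam1, an adhesion molecule that binds leukocyte integrins, rose by 3.56 ± 0.46 (FDR = 1.54e-05). Ccl3, a chemokine for monocytes, had 2 counts in all at 0 h, both in WT replicate 3, and between 6 and 36 counts in the 6 h libraries.

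No difference between the genotypes in the markers passed the test at 0 h. Of the 5 markers tested, none was called in either knockout against WT by the exact test, and none had an unadjusted p under 0.05. Across all genes 0.0904% were called higher and 0.32% lower in Egr1KO capsules at 0 h, and 0.185% and 0.11% in FosBcKO capsules. The quasi-likelihood F-test and DESeq2 called 0 members as well. In FosBcKO capsules the 7 tested genes of resident macrophages and antigen presentation had a median log2 fold change of 1.42 against WT at 0 h, against -0.0069 for all tested genes. None of the 7 was called, and 3 had an unadjusted p under 0.05, H2-Aa among them (2.01, FDR = 0.551). Without WT 0 h replicate 2, the library with few marker counts, the median was 0.96. Of the 7 further pan-leukocyte genes tested in FosBcKO against WT at 0 h, 1 was called higher and 2 had an unadjusted p under 0.05. Their median log2 fold change was 0.83. Of the 2 endothelial genes tested there, 1 was called higher, with a median of 2.21. In Egr1KO capsules at 0 h 0 genes of either list were called.

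At 6 h, the general markers and the macrophage markers other than Cd68 were higher in FosBcKO than in WT capsules by the exact test, 5 of 7 tested markers, where 4.48% of all tested genes were called higher and 0.929% lower. Adgre1 and Itgam had 10 or more counts in 0 WT and 3 FosBcKO libraries at 6 h and so entered the test through the FosBcKO libraries, and their part in the count is not support by itself. Csf1r was at 17.0 ± 3.13 CPM against 5.94 ± 1.88 CPM in WT (SD, n = 3, log2 fold change 1.66, FDR = 6.12e-05). Lyz2 was at 12.7 ± 1.02 against 5.11 ± 2.45 CPM (1.47, FDR = 0.00423) and Ptprc at 5.71 ± 1.84 against 1.96 ± 0.201 CPM (1.65, FDR = 0.00482). Adgre1 had 100 counts in FosBcKO and 6 in WT, a ratio of 14.8 (exact 95% interval 6.58 to 41.4, counting error only, FDR = 2.82e-05). Itgam had 44 counts in FosBcKO and 3 in WT, a ratio of 13.1 (4.18 to 65.7, FDR = 0.00100). The FosBcKO and WT libraries did not overlap at 6 h for any of these 5 genes. The genes were called on the same libraries, so this adds no support, and the share over all genes was not computed. Cd68 and Csf3r were not called, with log2 fold changes of -0.51 (FDR = 0.767) and -0.26 (FDR = 0.953), and S100a9 had 29 counts in FosBcKO and 28 in WT. The quasi-likelihood F-test called Csf1r alone (FDR = 0.0198), with FDR values of 0.0505 to 0.0780 for Adgre1, Ptprc, Lyz2 and Itgam. By the exact test Csf1r, Adgre1 and Itgam were called with any single library left out. Ptprc was lost without WT 6 h replicate 1 (FDR = 0.0634), WT 6 h replicate 2 (0.0508) or FosBcKO 6 h replicate 1 (0.0547), and Lyz2 without WT 6 h replicate 1 (0.0728), WT 6 h replicate 2 (0.0581) or FosBcKO 6 h replicate 2 (0.0651).

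**Figure D4:**
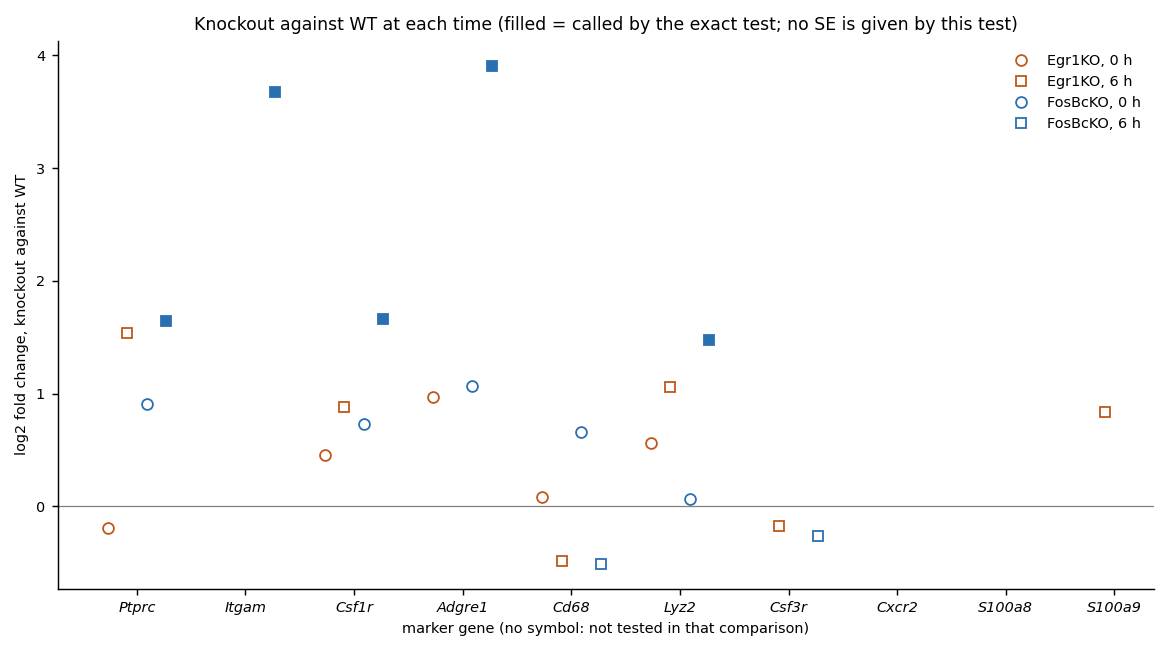
Log2 fold change of each leukocyte marker (horizontal axis) in Egr1KO and FosBcKO capsules against WT (vertical axis) at 0 h (circles) and 6 h (squares). Filled symbols were called by the exact test, which gives no SE. The 5 filled squares are Ptprc, Itgam, Csf1r, Adgre1 and Lyz2 in FosBcKO at 6 h, and no symbol at 0 h is filled.

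Genes of antigen presentation were higher beside them. Of the 8 resident macrophage and antigen presentation genes, 6 were called higher in FosBcKO than in WT at 6 h, with a median log2 fold change of 2.34 against 0.00 for all tested genes, among them Cd74 (2.54, FDR = 3.31e-12), H2-Aa (3.06, FDR = 7.82e-10), H2-Ab1 (3.27, FDR = 3.70e-07) and Cd14 (2.10, FDR = 0.0104). Of the 9 further pan-leukocyte genes, 7 were called higher, among them Lcp1 (2.43, FDR = 0.000281), Vav1 (2.74, FDR = 0.00572), Spi1 (2.31, FDR = 0.0325) and Plek (1.11, FDR = 0.0467). These lists hold many genes that the study's own tables of this comparison put first, so the counts are not independent evidence of the direction, and Spi1, with 10 or more counts in 0 WT and 3 FosBcKO libraries, entered the test through the FosBcKO libraries. The quasi-likelihood F-test called 5 of the 8 genes and 1 of the 9, Lcp1, and with the replicate number as a block it called 1, Cd74, and 0. Of the red cell and platelet genes, 2 of 7 tested were called higher, Hba-a2 (2.15, FDR = 0.00480) among them, and Hbb-bs was not called (0.74, FDR = 0.438). No endothelial gene was called, and of the pigment cell genes Tyrp1 was (1.67, FDR = 0.00431). The sum of the 4 pigment cell genes was 163.7 to 354.5 CPM in FosBcKO and 35.5 to 173.3 CPM in WT libraries at 6 h, and the part of adhering iris tissue in the difference was not tested.

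In Egr1KO capsules 0 of 6 tested markers were called against WT at 6 h by the exact test, where 0.461% of all tested genes were called higher and 0.275% lower, and 2 had an unadjusted p under 0.05. These were Ptprc, at 4.90 ± 2.21 against 1.96 ± 0.201 CPM (log2 fold change 1.54, FDR = 0.190), and Csf1r, at 9.30 ± 3.30 against 5.94 ± 1.88 CPM (0.88, FDR = 0.498). DESeq2 and the quasi-likelihood F-test called 0 members as well. Without Egr1KO 6 h replicate 2, Ptprc (FDR = 0.0237) and Adgre1 (FDR = 0.00174) were called. Adgre1 was too low to be tested with all 6 libraries, and entered that test through 30 and 28 counts in the remaining Egr1KO libraries against 4, 2 and 0 in WT. Of the 9 further pan-leukocyte genes 2 were called higher in Egr1KO than in WT at 6 h, Lcp1 (log2 fold change 2.49) and Spi1 (2.86), and of the 8 genes of resident macrophages and antigen presentation 2 were, Cd74 (2.33) and H2-Aa (2.94). Spi1 entered the test through the Egr1KO libraries. None of these 4 calls was made by the quasi-likelihood F-test, with or without the replicate number as a block, which called 0 of 15618 genes in this comparison (1115 and 1317 genes at an unadjusted p under 0.05 with and without the block). By the exact test 1 of the 8 red cell and platelet genes was called higher and 7 had an unadjusted p under 0.05, with a median log2 fold change of 1.35. Of the 4 pigment cell genes 0 were called and 3 had such a p, with a median of 1.24. Of the 4 endothelial genes 1 was called lower, and the median was -0.28. The part of blood and iris RNA in the difference between Egr1KO and WT capsules was not tested.

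The change with time was not shown to differ between genotypes. The interaction of time with genotype passed the threshold for 0 of 8 markers in either knockout with the quasi-likelihood fit and with DESeq2, and no marker had an unadjusted p under 0.05 by the quasi-likelihood fit. Across all 17469 genes the quasi-likelihood fit called 0 for either knockout, with 1141 genes for Egr1KO and 1171 for FosBcKO at an unadjusted p under 0.05, and DESeq2 called 2 and 25. The interaction estimate for Adgre1 was 2.76 ± 1.42 on the log2 scale in FosBcKO (FDR = 0.749) and 2.49 ± 1.43 in Egr1KO capsules (FDR = 0.794), and for Ptprc it was 0.66 ± 1.00 and 1.69 ± 1.02. The WT samples are shared by both knockout comparisons.

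The genes whose log2 CPM followed Ptprc most closely over the 18 libraries, among 17468 genes compared, were Lyn (Pearson r = 0.901), a kinase of the Src family in blood cells, Igfn1 (0.895), Slc16a10 (0.888), Cd74 (0.885) and Fyb (0.874), an adaptor of blood cells. For S100a9 they were the mitochondrial genes mt-Rnr1 (0.913), mt-Cytb (0.905) and mt-Rnr2 (0.903), Coq8b (0.901), an enzyme of coenzyme Q synthesis, and an ID with no known name. The libraries share the difference between the times, and the S100a9 counts are sparse, so these values are a description only.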

How the data were processed

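Lens capsules of WT, Egr1KO and FosBcKO mice were pooled by 5 per library, and 18 ribodepleted, stranded, paired-end libraries were made with the SMARTer Stranded Pico v2 kit. The authors used HISAT2 for alignment and HTSeq-count (union mode, Ensembl genes) for counting, and deposited unnormalized counts, which are whole read pairs per gene. The study's methods name GRCm38 and the submitters' processing notes name GRCm39, so no coordinates are given. The 5 summary lines of each table were left out of library sizes: 8.03% to 30.5% of pairs fell outside genes, 8.25% to 18.0% did not align, 3.80% to 5.41% aligned more than once, 2.76% to 3.84% had low quality and 0.940% to 1.37% were ambiguous. Intervals and floors cover counting error only, since no molecular identifiers were stated.

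Tests were made with edgeR 4.0.16 in R 4.3.3 on all genes passing filterByExpr, with TMM scaling and Benjamini-Hochberg adjustment. The quasi-likelihood F-test compared 6 h with 0 h in each genotype (6 libraries), over all genotypes with genotype as a term (18 libraries), and for the interactions. The exact test compared each knockout with WT at each time (6 libraries). Fits were tested on simulated data first. DESeq2 1.42.0, RLE size factors, other filters, no fold minimum, the replicate block and leaving out each library were alternatives. Replicates are pools of capsules, so p-values measure the spread between pools. Chi-square tests between the 3 libraries of each group found none deposited more than once, and libraries of different groups were not compared.

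The files hold no gene names. Members were given by ID. For other lists, 50 of 104 genes were matched through the study's own tables, of which only the ID and symbol were used, and the RefSeq table matched 0 IDs. From each list at most the 4 genes with the smallest p over all genotypes are named, with the 5 genes most like Ptprc and S100a9 (log2 of CPM plus 0.5). The members and lists were chosen with earlier results of these data known. The result of 1 listed gene is not reported here. Correlations of same-numbered deviations between the 0 h and 6 h libraries were 0.102, 0.230 and 0.247 in WT. They were 0.0198, 0.146 and 0.0200 in Egr1KO, and 0.160, 0.0776 and 0.181 in FosBcKO capsules. Between WT and the knockouts, which share no animals, they ranged from -0.259 to 0.198. These values cannot settle whether the replicate numbers pair libraries of the same animals. The main tests over time did not use the shared animals, and the replicate block was an alternative.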

Additional observations from a re-analysis of the deposited data

Results flagged for a closer look

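Read pairs outside annotated genes, which no comparison used, made up a mean of 24.4% of all pairs in the 9 libraries at 6 h (up to 30.5%) against 14.0% in the 9 libraries at 0 h (8.03% to 20.9%).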

How the results depend on the processing

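With the numbers of markers called as the result, the calls over all genotypes (4 markers) were kept in every one of the 18 leave-one-out fits, and the counts for the knockouts against WT at 0 h and for both interactions stayed at 0 under every alternative run. In FosBcKO capsules over time, dropping the fold minimum gave 2 calls, Lyz2 beside Ptprc, and with no filter S100a9 was called in place of Ptprc (FDR = 0.0281). Leaving out each library in turn gave 0 to 1 calls over time in WT capsules (Cd68 was lost without WT 6 h replicate 1), 0 to 3 in Egr1KO capsules (0 without any one of the 0 h libraries or without 6 h replicate 3, and 3, with Cd68, without 6 h replicate 1), and 0 to 1 in FosBcKO capsules (1 only without 6 h replicate 3). It gave 0 to 2 calls for Egr1KO against WT at 6 h, and 3 to 5 for FosBcKO against WT at 6 h (3, namely Itgam, Csf1r and Adgre1, without WT 6 h replicate 1 or 2). For that last comparison the quasi-likelihood F-test gave 1 call and the same test with the replicate number as a block gave 0. The block kept the calls of the time comparisons, 1 in WT (Cd68), 2 in Egr1KO, 1 in FosBcKO and 4 over all genotypes. In WT it turned the uncalled Csf1r from -0.28 to 0.38. Lyz2 in Egr1KO capsules, at 0.03, turned to -0.0093 with no filter and -0.032 with the block. Leaving out a library moved uncalled values across 0: Csf1r ranged from -0.87 to 0.47 in WT, -0.26 to 0.42 in Egr1KO and -0.014 to 0.41 over all genotypes, and Lyz2 from -0.98 to 0.59, -0.61 to 0.42 and -0.020 to 0.52. The depth limits the neutrophil markers: 3 counts are 0.216 to 0.312 CPM, and no WT library had over 3 counts of Cxcr2, S100a8 or Itgam.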
